A study of Mus musculus with 4 samples.

Results

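The genes described here are 7 noncoding genes that carry small nucleolar RNAs (snoRNAs) in their introns: Gas5, Snhg1, Snhg3, Snhg5, Snhg6, Snhg8 and Snhg12. They were chosen by name, with earlier results of these data known, and each matched 1 row of a deposited table of 47885 rows. RNA was measured in 4 single whole C57BL/6 mouse embryos taken at embryonic day 5.5. The 2 WT embryos are labelled Mettl14+/+ and the 2 KO embryos Mettl14-/-; Mettl14 is the RNA-binding partner of Mettl3, the methyltransferase that places N6-methyladenosine (m6A). Libraries were made from polyadenylated RNA by Smart-Seq v4, per the labels' protocols, and genotype was read from Mettl14 qPCR on the amplified cDNA, so that WT means an embryo in which Mettl14 mRNA was found and may include heterozygotes; which bases are deleted was not known here. Mettl14 stood at 34.0 and 31.6 CPM (counts scaled to a common library size, with TMM factors) in WT replicates 1 and 2, against 4.63 and 8.04 CPM in the KO pair, which repeats the measure used to class the embryos.

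Box C/D snoRNAs guide 2'-O-methylation and box H/ACA snoRNAs guide pseudouridylation, mainly of ribosomal RNA. In vertebrates most are cut out of the introns of a host gene. The spliced exons of a noncoding host are in many cases short-lived, because ribosomes meet an early stop codon and nonsense-mediated decay removes the RNA. Several noncoding hosts share with ribosomal protein genes a promoter of the TOP type, in which transcription starts at a C within a run of pyrimidines. Gas5 was named for its accumulation in growth-arrested mouse fibroblasts, and its human RNA is known to bind the glucocorticoid receptor.

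GENCODE M21 places 29 entries of the snoRNA class inside these hosts on the same strand, 10 in Gas5, 8 in Snhg1, 5 in Snhg12, 2 each in Snhg3 and Snhg5, and 1 each in Snhg6 and Snhg8. These are annotation entries and not all distinct snoRNAs: Snord80 in Gas5 and Snora16a in Snhg12 each have 2 overlapping entries, and 1 Gas5 entry is named Mir5117. One snoRNA per measured host is shown, since these are the products for which the hosts are known; sequences are GENCODE M21 transcripts on mm10, with T for U. Capitals mark the letters TGATGA (C box) and CTGA (D box) in box C/D snoRNAs, and ACA ahead of the last 3 bases in Snora24, a box H/ACA snoRNA.
Snord47, in Gas5, chr1:161038082-161038158, plus strand: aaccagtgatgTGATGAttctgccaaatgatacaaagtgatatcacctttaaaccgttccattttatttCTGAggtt
Gm25855, in Snhg1, chr19:8723993-8724064, plus strand: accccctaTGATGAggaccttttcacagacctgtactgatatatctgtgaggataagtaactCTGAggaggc
Snord50a, in Snhg5, chr9:88521529-88521600, minus strand: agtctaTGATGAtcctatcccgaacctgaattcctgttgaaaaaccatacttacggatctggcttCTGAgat
Snord87, in Snhg6, chr1:9942463-9942549, minus strand: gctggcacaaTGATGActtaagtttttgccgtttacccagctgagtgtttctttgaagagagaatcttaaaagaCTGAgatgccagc
Snora24, in Snhg8, chr3:123507937-123508066, minus strand: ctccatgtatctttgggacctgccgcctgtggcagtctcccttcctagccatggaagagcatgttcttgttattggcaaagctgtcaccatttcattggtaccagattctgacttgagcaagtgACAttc
Snord99, in Snhg12, chr4:132310691-132310764, plus strand: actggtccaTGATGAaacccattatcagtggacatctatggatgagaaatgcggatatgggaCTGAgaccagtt

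These snoRNAs themselves were almost unmeasured. Of the 29 rows, 28 held 0 counts in every library, and the exception was Snord87, with 4, 5, 7 and 1 counts in WT replicates 1 and 2 and KO replicates 1 and 2. Mature snoRNAs are short and carry no poly(A) tail, and the libraries were made from polyadenylated RNA. The annotation also places 26 of the 29 wholly within exons of host transcripts, many of them retained-intron transcripts, while Snord87 and Snora73b lie wholly in introns. The rule by which reads over 2 genes were counted is unknown. The values below describe host transcripts and say nothing of snoRNA amounts.

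Start sites carry the TOP promoter feature, so windows of 25 bases before to 25 bases from the annotated transcript start (the first base after the first 25) are shown for the 5 measured hosts with a RefSeq entry, from build GRCm38.p6, 5′ to 3′ on the gene's strand. Capitals mark CTTT.
Gas5, chr1:161035141-161035190, plus strand: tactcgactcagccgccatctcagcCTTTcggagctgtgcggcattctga
Snhg1, chr19:8723462-8723511, plus strand: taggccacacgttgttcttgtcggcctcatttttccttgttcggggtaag
Snhg5, chr9:88522873-88522922, minus strand: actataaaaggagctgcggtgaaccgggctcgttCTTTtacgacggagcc
Snhg8, chr3:123508312-123508361, minus strand: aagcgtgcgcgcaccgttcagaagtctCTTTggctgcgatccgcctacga
Snhg12, chr4:132308653-132308702, plus strand: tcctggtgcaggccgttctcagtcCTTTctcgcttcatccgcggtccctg

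The letters CTTT, searched after these sequences had been read, occurred on the gene's strand in 4 of 7 member windows (57.1%; Gas5, Snhg5, Snhg8 and Snhg12, but neither Snhg1, Snhg3 nor an upstream start of Gas5), against 19.3% of all 32851 RefSeq start windows of this length. In Gas5 they begin at the annotated start itself. Because the letters were picked from these same windows, their higher share there tests nothing. CTTT elsewhere in a window is not by itself a TOP start. On the other strand 19.1% of all windows held them, and 28.6% of the member windows. Windows of the other noncoding snoRNA hosts held CTTT on the gene's strand in 4 of 17 cases (23.5%) and those of protein-coding hosts in 10 of 32 (31.2%).

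For each host that was measured, 1 embryo of each genotype had 1.74 to 3.69 times the level of the other, and WT and KO embryos overlapped. Gas5 (ENSMUSG00000053332, chromosome 1, 161034422 to 161038539 on mm10, plus strand), host of Snord47, Snord78 and Snord80 among others, had 4822, 2349, 4977 and 1777 counts in the order WT replicates 1 and 2, KO replicates 1 and 2, or 284, 126, 235 and 63.8 CPM. Replicate 1 was the higher embryo in both groups, by 2.26-fold in WT and 3.69-fold in KO, and the groups overlapped. Snhg1 (ENSMUSG00000108414, chromosome 19, 8723475 to 8726443), an RNA of which little but its box C/D snoRNAs is conserved, had 1884, 717, 1716 and 939 counts in the same order of embryos, or 111, 38.3, 81.0 and 33.7 CPM. Here too both replicates numbered 1 exceeded both numbered 2.

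Snhg5 (ENSMUSG00000097195, chromosome 9, 88521050 to 88522929), host of the U50-type snoRNAs Snord50a and Snord50b, had 4076, 2577, 3525 and 2439 counts, or 240, 138, 166 and 87.5 CPM. Its WT embryos differed by 1.74-fold, the smallest ratio between WT embryos among the 6 measured members, and its KO embryos by 1.90-fold. Snhg6 (ENSMUSG00000098234, chromosome 1, 9941959 to 9944118), host of Snord87, had 750, 409, 726 and 379 counts, or 44.2, 21.9, 34.3 and 13.6 CPM.

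Snhg8 (ENSMUSG00000104960, chromosome 3, 123507552 to 123508404), host of Snora24, had 382, 129, 218 and 154 counts, or 22.5, 6.89, 10.3 and 5.53 CPM. WT replicate 1 stood alone at the top, and the other 3 embryos lay closer together. Snhg12 (ENSMUSG00000086290, chromosome 4, 132308623 to 132311024), which carries Snora44, Snora61, Snora16a and Snord99, had 341, 156, 405 and 263 counts, or 20.1, 8.34, 19.1 and 9.44 CPM. The replicates numbered 1 were nearly equal to each other, as were those numbered 2.

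Snhg3 (ENSMUSG00000085241, chromosome 4, 132348014 to 132353686), host of Snora73a and Snora73b, was the exception, with 1 count in WT replicate 2 and 0 in the other 3 embryos. A total of 0 in the KO group allows up to 3 counts, or 0.0612 CPM, for counting error only. In the annotation 86.3% of its exon bases also belong to other genes, against 8.3% to 20.9% for the other 6 members. Exons of Gm17300 on the opposite strand cover 71.5% of them, and the kit does not mark strand. Gm17300 had 33, 6, 11 and 2 counts, in the same order of embryos as the other hosts. Whether Snhg3 is silent or its reads were not assigned was not tested. Snhg3 failed the low-count filter, so the tests below concern 6 of the 7 members.

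**Figure D1:**
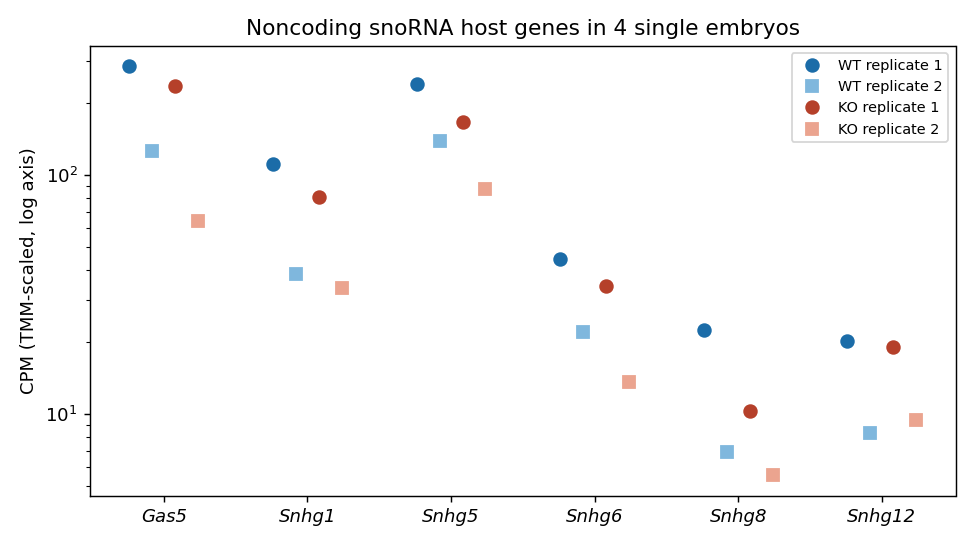
Points give CPM on a log axis for the 6 members with counts, in WT (blue) and KO (red) embryos, replicate 1 as circles and replicate 2 as squares. For each gene both circles lie above both squares, as for Gas5 with 284 and 235 CPM above 126 and 63.8 CPM, while WT and KO points interleave.

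The same order, both replicates numbered 1 above both numbered 2, held for 6 of 6 tested members. It held for 23.6% of the 15563 genes tested. Replicate numbers only name embryos; no source says that a number marks a shared litter or day. The median difference over the members was 1.22 log2 units between WT replicates 1 and 2 and 1.14 between KO replicates 1 and 2, against 0.03 and 0.08 over all genes tested. Classes nearer to the members differed more than all genes did. The 2 medians were 0.76 and 1.11 for 12 other noncoding snoRNA hosts and 0.63 and 0.94 for 904 long noncoding genes. For 15 mitochondrially encoded genes they were 0.84 and 0.72. From the highest to the lowest embryo the range ran from 2.41-fold for Snhg12 to 4.46-fold for Gas5. Summed over the 7 genes the level was 722 and 339 CPM for the WT embryos, then 546 and 214 CPM for the KO embryos.

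Other measures of the libraries stood in that order too. Long noncoding genes took 1.03%, 0.631%, 0.763% and 0.446% of counts in the order given above, and mitochondrially encoded genes 1.42%, 0.889%, 1.47% and 1.06%. Genes with at least 1 count numbered 21488, 19603, 21250 and 18346, although total counts were 16108062, 20121289, 20248636 and 28698541. Among tested genes the order held for 38.6% of 904 long noncoding genes, 93.3% of 15 mitochondrially encoded genes and 51.8% of 83 ribosomal protein genes. The part of these measures in the host values was not tested. In whole embryos, fewer cells of a type and less RNA per cell cannot be told apart.

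**Figure D2:**
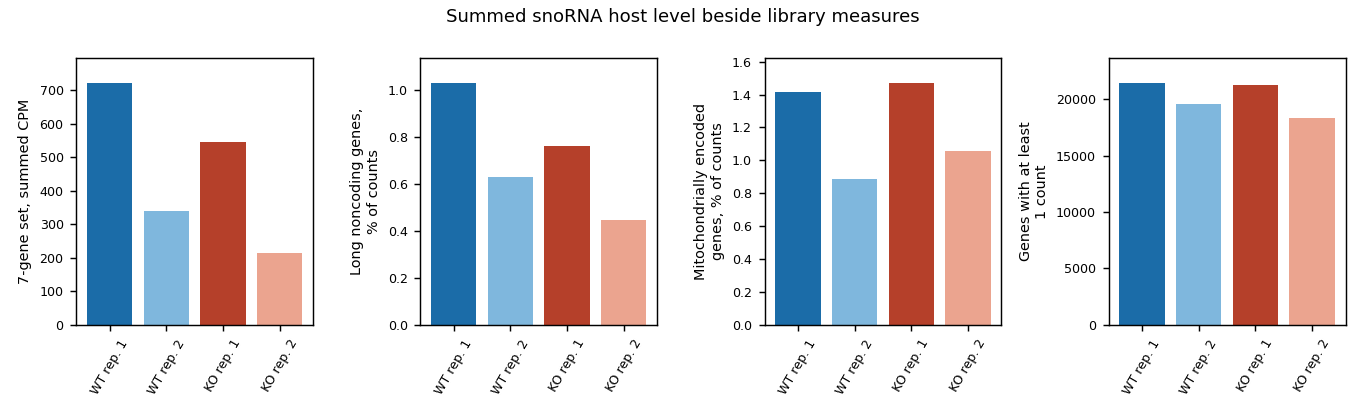
Bars give, for each embryo, the summed CPM of the 7 genes, the percent of counts in long noncoding genes and in mitochondrially encoded genes, and the number of genes detected. In each panel both replicates numbered 1 stand above both numbered 2, from 722 against 339 CPM in WT for the summed hosts to 21488 against 19603 genes detected.

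Summed markers of the tissues of the egg cylinder did not follow that order, and visceral endoderm markers went the other way by median. Their median difference, replicate 1 minus replicate 2, was -1.36 log2 units in WT and -0.60 in KO. The 2 medians were -1.33 and -0.03 for tested parietal endoderm markers and -0.20 and -0.37 for epiblast. They were -0.29 and 0.70 for extraembryonic ectoderm, and -0.50 and 1.29 for tested cone and giant cell markers. All 10 epiblast markers were detected, and their summed level was 3270, 3250, 2480 and 3260 CPM. Visceral endoderm markers, 10 of 10 detected, summed to 762, 2110, 295 and 397 CPM. Extraembryonic ectoderm markers, also 10 of 10, summed to 806, 1010, 1620 and 1100 CPM, ectoplacental cone and giant cell markers, 7 of 10, to 374, 575, 1860 and 1050, and parietal endoderm markers, 10 of 10, to 300, 894, 410 and 462.

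For tissue from outside the embryo, maternal decidua markers (9 of 10 detected, Hoxa11 at 0) summed to 21.0, 28.8, 5.67 and 4.34 CPM. Blood markers (6 of 10 detected) summed to at most 5.20 CPM in any embryo, with the adult globin genes Hbb-bt and Hbb-bs at 0 throughout. Among the giant cell and cone markers Prl2c2, Tpbpa and Ctsq were at 0. In none of these 7 lists were both replicates numbered 1 above both numbered 2 in summed level. Visceral endoderm and decidua sums were lower in both KO embryos than in both WT embryos, and extraembryonic ectoderm, giant cell and blood sums higher. Not every marker followed its sum. Of 10 extraembryonic ectoderm markers, 3 had a log2 fold change, KO over WT, below 0, and the median was 0.18. The part of these tissues in the order of the hosts, or in the KO to WT differences given next, was not tested.

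Fold changes between KO and WT were small beside that spread. Snhg8 had the largest, at 14.7 ± 11.0 CPM for WT against 7.91 ± 3.37 CPM for KO (SD, n = 2 embryos each) and a log2 fold change of -0.90 (SE 0.64; edgeR adjusted p = 0.83). Snhg5 averaged 189 ± 72.5 CPM over WT and 127 ± 55.8 over KO embryos, at -0.57 (SE 0.42; edgeR adjusted p = 0.84). Snhg6 stood at -0.47 (SE 0.54), Gas5 at -0.46 (SE 0.61) and Snhg1 at -0.38 (SE 0.58). Snhg12 stood at 0.00 (SE 0.57), where WT averaged 14.2 ± 8.32 and KO 14.3 ± 6.85 CPM. For each of the 6 the difference between group means was below the larger of the group SDs.

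None of the 6 tested members passed an adjusted p of 0.05 by edgeR, DESeq2 or limma-voom, and 0 had an unadjusted p under 0.05 by edgeR. Over all 15563 genes edgeR called 0%, with 4.74% higher and 3.08% lower at an unadjusted p under 0.05; DESeq2 called 0.964% higher and 0.578% lower, and limma-voom 0%. The WT and KO embryos overlapped for all 6 members, whereas both KO embryos lay below both WT embryos for 18.8% of genes and above for 19.4%. Mettl14 itself, at a log2 fold change of -2.37 (SE 0.45), was called by DESeq2 (adjusted p = 0.000418). It was not called by edgeR (adjusted p = 0.274) or limma-voom (adjusted p = 0.284). With 2 embryos a group, these tests do not show that the levels are alike.

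The median log2 fold change of the members was -0.46, against -0.04 over all genes tested. It equals within 0.01 the median of the 904 long noncoding genes, -0.47, of which 69.0% were below 0. Single embryos decided it: without WT replicate 1 the median was 0.22 and without KO replicate 2 it was 0.10, while without WT replicate 2 it was -0.91 and without KO replicate 1 -1.13.

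**Figure D3:**
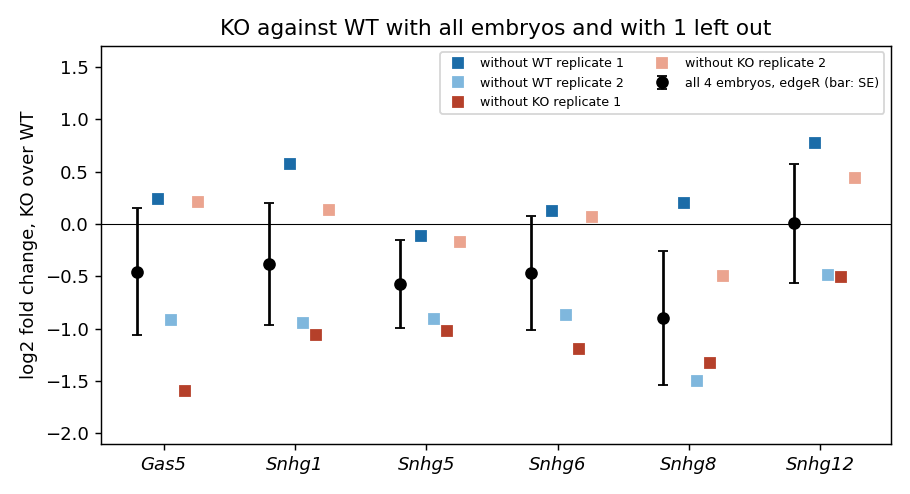
Black points give the log2 fold change, KO over WT, from all 4 embryos with its SE, and squares give it with 1 embryo left out. Values without WT replicate 1 lie between -0.12 and 0.77 and those without KO replicate 1 between -1.60 and -0.51, so the sign turns on which embryo is kept for all but Snhg5.

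Levels were next ordered among the members per kilobase. Divided by the union of annotated exons, the mean over embryos was 91.3 CPM per kb for Snhg5, 47.1 for Gas5, 24.9 for Snhg6, 22.2 for Snhg1, 13.3 for Snhg8 and 5.93 for Snhg12, and the order was the same in each of the 4 embryos. Ranges over the embryos overlapped between each pair of neighbours in that order. The top of it depends on the length used, since 20 of 25 annotated Gas5 transcripts and 14 of 18 of Snhg1 keep introns. Divided by the longest spliced transcript (665 bases for Gas5, 1004 for Snhg5), Gas5 came first at 266 CPM per kb, ahead of Snhg5 at 157 and Snhg1 at 93.1.

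Of 9 tested genes within 5 kb of a member, 3 had the order of the hosts (Gm17300, Mcmdc2 and Phactr4), beside 23.6% of all genes tested. Gm17300 rests on 2 to 33 counts, and Phactr4 had 21.2, 19.9, 25.5 and 21.0 CPM. Slc3a2, an amino acid transporter subunit whose annotated start lies 105 bases from Snhg1 on the opposite strand, had 363, 500, 583 and 652 CPM, lowest where Snhg1 was highest. Trnau1ap, a selenocysteine tRNA factor next to Snhg12, had 75.6, 93.8, 74.5 and 91.6 CPM. Mcmdc2, a meiotic recombination gene whose exons cover 11.1% of those of Snhg6 on the opposite strand, had 7.37, 3.10, 3.21 and 1.15 CPM. This is the order of Snhg6, and reads in the shared bases cannot be assigned to a strand.

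Snhg8 lies 121.4 kb from Mettl14 on chromosome 3. Between them lies Prss12, a neuronal serine protease gene 954 bases from Snhg8 on the other strand, with 12.4, 21.1, 1.65 and 4.41 CPM. Its log2 fold change was -2.46 (SE 0.62), not called by edgeR (adjusted p = 0.369) but called by DESeq2 (adjusted p = 0.0147), and its groups did not overlap, unlike those of Snhg8. Snhg12 and Snhg3 lie 37.0 kb apart on chromosome 4.

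The m6A writer acts at a consensus built around GGAC. Gas5 had 5 matches of GGAC in its 665-base spliced transcript, or 7.52 per kb, more than 94.5% of the tested genes with a transcript sequence (strand of the transcript only; median 4.04 per kb over 15046 genes). Snhg6 had 3.68 per kb, and Snhg1, Snhg3, Snhg5, Snhg8 and Snhg12 had 1.30 to 1.99 per kb, or 1 or 2 matches each. Whether these matches bear on the fold changes was not tested. A match is a run of letters and not a methylated site.

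Other noncoding snoRNA hosts were listed by name, also with earlier results of these data known. They were 17 in all, of which 14 matched a row, 11 of these held an annotated snoRNA and 12 were tested. The median log2 fold change was -0.25. None of the 12 was called higher or lower by edgeR, which called 0% of all 15563 genes tested. By edgeR 2 had an unadjusted p under 0.05, both lower in KO, beside 3.08% lower and 4.74% higher of all genes tested. Those 2 were RNAs of the imprinted Dlk1-Dio3 region. Meg3, within which no snoRNA is annotated here, stood at 106, 55.6, 33.9 and 7.03 CPM (log2 fold change -1.98, SE 0.69, edgeR adjusted p = 0.524; DESeq2 adjusted p = 0.047), and Rian, which hosts tandem box C/D snoRNAs, had 113, 61.6, 40.4 and 17.0 CPM (-1.61, SE 0.51, edgeR adjusted p = 0.488). Both KO embryos lay below both WT embryos for these and for Mirg, the third RNA of that region. That makes 3 of the 12 tested, beside 18.8% of all 15563 genes tested.

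The order seen in the 7-gene set held for 8 of the 12. Some of the 8 had nearly level embryos within a genotype. Snhg20 had 27.1 and 26.8 CPM in WT, and Epb41l4aos 21.2 and 19.3 CPM in KO. Snhg14, host of the Snord115 and Snord116 arrays of the Prader-Willi region, spanned the widest range, with 280, 54.7, 123 and 14.7 CPM. Zfas1, a host with a TOP-type promoter in human, had 94.6, 31.8, 83.8 and 29.6 CPM, close in pattern to Snhg1. Snhg11 had 38.0, 15.5, 19.5 and 6.10 CPM (log2 fold change -1.07, SE 0.65). Snhg18 was different, with 2.42, 2.62, 2.22 and 3.34 CPM.

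Protein-coding snoRNA hosts showed little of that difference. Of 39 tested, 38 of them with a snoRNA annotated inside, edgeR called 0, as it called 0% of all genes tested. The order held for 14, and the median difference was 0.10 log2 units between WT embryos and 0.14 between KO embryos. The median log2 fold change of these 39 was -0.16, with 30 (76.9%) below 0. Of all genes tested 52.3% were below 0, and of 83 ribosomal protein genes 74.7%. Eif4a2, an RNA helicase gene that hosts snoRNAs and has a decay-sensitive splice form, had the order of the noncoding hosts, with 385, 231, 309 and 167 CPM. Rpl7a, a ribosomal protein gene, stood at -0.36 (SE 0.25), with both KO embryos below both WT embryos. This held for 9 of the 39, beside 18.8% of all genes tested.

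**Figure D4:**
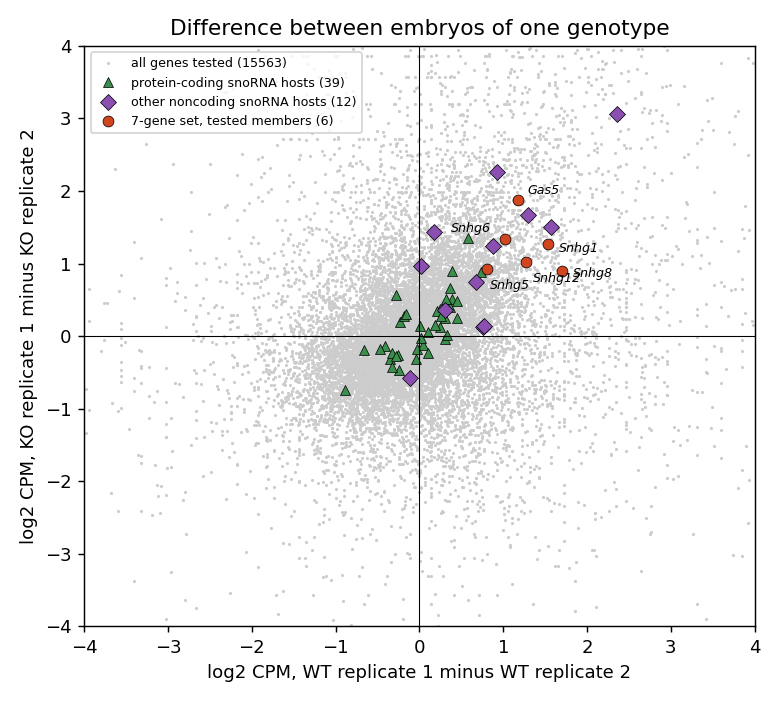
Each point is a gene, placed by its log2 difference between WT replicates (x) and between KO replicates (y), with all 15563 tested genes in grey (888 lie outside the axes, which end at 4). The 6 tested members (orange circles) sit together at the upper right, with medians of 1.22 and 1.14. The 12 other noncoding hosts (diamonds) have medians of 0.76 and 1.11, and the 39 protein-coding hosts (green triangles) 0.10 and 0.14.

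Genes that act on these RNAs gave no call by edgeR in any list, but edgeR called 0% of all 15563 genes tested. Of 8 core proteins of snoRNPs, 6 had values below 0 (median -0.17); Fbl, the methyltransferase of box C/D particles, had 248, 298, 195 and 251 CPM, and Nhp2, of H/ACA particles, 686, 698, 890 and 1080. The order of the hosts held for 1 of the 8. Assembly factors had a median of 0.14 over 12 genes, with Pih1d1, of the R2TP complex, at -0.67 (SE 0.34) and Shq1, a dyskerin chaperone, at 0.67 (SE 0.38).

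Nonsense-mediated decay factors had a median of 0.02 over 18 genes, and 9 shared the order of the hosts. Smg8, a regulator of the Smg1 kinase, had 25.8, 26.9, 40.6 and 45.2 CPM (log2 fold change 0.70, SE 0.35), and Pnrc2, a decapping adaptor, 163, 136, 70.3 and 101 (-0.80, SE 0.34, unadjusted p = 0.0454 by edgeR). Targets of that pathway, a list of 18 that includes Gas5, Snhg1 and Snhg12 themselves, had a median of -0.15, with 9 in the order of the hosts. Of the 18, 13 had a log2 fold change below 0. Tra2a stood at -0.50 (SE 0.36) and Srsf2 at -0.46 (SE 0.36), neither in that order. Gadd45a, a stress gene often used as a readout of the pathway, had that order, with a log2 fold change of 0.55 (SE 0.485).

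Regulators of TOP mRNAs had a median of 0.03 over 13 genes, with the order of the hosts in 3 and 6 below 0. Tsc1, an inhibitor upstream of mTOR, stood at 0.81 (SE 0.47) and Eif4ebp1, a target of mTOR, at 0.43 (SE 0.25). Tia1 stood at -0.615 (SE 0.368) and Rheb at -0.372 (SE 0.278). Genes of 5' to 3' decay and of intron debranching had a median of -0.10 over 10 genes, with Edc4, of the decapping complex, at -0.65 (SE 0.40). Dbr1, the debranching enzyme that opens the lariats from which intronic snoRNAs are trimmed, had 38.5, 55.7, 53.4 and 69.1 CPM (0.38, SE 0.37).

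Over the 4 embryos, the tested genes nearest to the mean profile of the members (smallest Euclidean distance of centred log2 CPM among 12970 named genes) were Vps13d, Cdc42bpg, Pan3, Spopl and Gldc, at distances of 0.07 to 0.163. Gldc, the glycine decarboxylase gene, had 280, 127, 191 and 94.8 CPM, and Pan3, of a deadenylase complex, 40.7, 15.6, 25.7 and 11.9, while Cdc42bpg rests on 12 to 26 counts. None of the 5 is a snoRNA host of the lists, and 4 libraries allow many such likenesses.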

How the data were processed

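The authors deposited 1 table of raw counts for 4 libraries (whole numbers, unscaled). The submitters' processing notes name TopHat, Cufflinks and mm10; no source used here gives versions, the counter, its strand setting or its annotation. Of 47885 rows, 46574 matched GENCODE M21, from which symbols, coordinates and exons were taken, and 816 were gene models without an Ensembl identifier. KO was compared with WT by edgeR 4.0.16 (R 4.3.3): filterByExpr (minimum count 10, minimum total 15), TMM, robust dispersions, quasi-likelihood F test, Benjamini-Hochberg over 15563 genes, threshold 0.05. SE is the absolute log2 fold change over the square root of F. CPM uses TMM-scaled library sizes; 1 count was worth 0.0359 to 0.059 CPM, and floors of 3 counts cover counting error only. Centred profiles used log2 CPM with a prior count of 2. Alternatives were DESeq2 1.42.0, limma-voom (limma 3.58.1), RLE scaling, library totals, 2 other filters, a replicate block and leaving out each library. Tests were tried on simulated data. Members and lists were chosen with earlier results of these data known. Named beside the members were up to 4 genes of each other list with the smallest unadjusted p. Also named were snoRNA rows with at least 10 counts (0 passed), neighbours within 5 kb and the 5 nearest profiles. Snord87, Snhg14, Zfas1, Snhg18, Snhg20 and Epb41l4aos were chosen after their values were seen. Each library is 1 embryo; no source states litters.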

Additional observations from a re-analysis of the deposited data

How the results depend on the processing

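No tested member passed the threshold under any of the 11 alternatives (66 values, adjusted p from 0.143 to 1), and 54 of the 66 kept the sign of the fit reported. Signs changed without WT replicate 1 for Gas5 (0.23), Snhg1 (0.57), Snhg6 (0.12) and Snhg8 (0.20), without KO replicate 2 for Gas5 (0.21), Snhg1 (0.13) and Snhg6 (0.07), and for Snhg12, at 0.00 in the fit reported, with DESeq2 and RLE scaling (-0.009 each), with at least 50 counts in 2 libraries (-0.013), without WT replicate 2 (-0.48) and without KO replicate 1 (-0.51); the cause was not tested. With 1 library left out Gas5 ran from -1.60 to 0.23, Snhg1 from -1.064 to 0.574, Snhg5 from -1.03 to -0.12, Snhg6 from -1.196 to 0.122, Snhg8 from -1.5 to 0.20, Snhg12 from -0.506 to 0.772 and the members' median from -1.13 to 0.22; under the other alternatives the median stayed within -0.58 and -0.44. Over all genes edgeR called 0 higher and 0 lower, DESeq2 150 and 90, no low-count filter 157 and 101, and leaving out 1 library 14 to 133 higher and 1 to 209 lower. Of other noncoding hosts, none was called lower in the fit reported, 1 with DESeq2, 2 with no low-count filter and 0 to 3 with 1 library left out, where the 3 were called without KO replicate 1. Of the fits with 1 library left out, the one without KO replicate 1 also called the most genes over all, higher and lower. It tested 16786 genes, and the fit with no low-count filter 25350. With DESeq2 the genes called lower were 0.578% of 15563. In the fit reported 12 of these hosts were tested. The replicate block, over 15563 genes, called 52 higher, 19 lower and 2 other noncoding hosts lower. That block gave Gas5 -0.63 (adjusted p = 0.29) and Snhg5 -0.59 (adjusted p = 0.252). Equal replicate numbers mark no stated pairing; over 15563 genes the WT difference between replicates correlated with the KO difference at 0.329 (Pearson, genes not being independent). Division by spliced length, which put Gas5 above Snhg5, was chosen after seeing the data.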

Other observations

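Across the whole table, 253 of 1507 annotated snoRNA rows held any count and the highest value was 283 counts. Rows wholly inside exons of another gene held a count in 12.8% of 172 cases, rows partly inside in 24.1% of 58, and rows outside exons of other genes in 17.0% of 1277. Among the 29 rows inside the 7 hosts, 1 held a count.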
